A study of Homo sapiens with 12 samples.

Results

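The zinc finger genes of human chromosome 19 whose symbol is ZNF followed by a number, and by at most 1 further letter, were read out from nascent RNA of U2OS cells. The rule used the symbol and the chromosome alone and took 259 of the 60583 genes in the deposited count tables. GENCODE release 29 lists 242 of the 259 as protein-coding and 14 as pseudogenes, which the further letter P lets in, and 3 symbols were not matched. The proteins bear out the family name: a pattern for the KRAB box was found in 205 of the 242 coding genes and not in 37, and the 242 proteins held a median of 12 zinc fingers of the C2H2 kind (0 to 39). Coding ZNF genes of other chromosomes held a median of 9 (0 to 33, n = 263). A divergent KRAB box may be missed by the pattern.

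KRAB zinc finger proteins bind DNA through arrays of C2H2 fingers, many of them at transposable elements, and their KRAB box recruits the corepressor TRIM28. TRIM28 in turn brings the histone H3 lysine methyltransferase SETDB1 and HP1 proteins, which build repressive chromatin. The genes arose by tandem duplication, sit in clusters of close relatives and are themselves among the gene bodies that carry heterochromatin marks in many cell types. INTS11, the target of the siRNA, is the endonuclease of the Integrator complex, which cleaves the RNA that RNA polymerase II is making.

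The libraries were made by TT-seq, in which 4-thiouridine-labelled RNA is fragmented and captured so that RNA made in a short window is counted. U2OS is an osteosarcoma cell line. The 4 groups of 3 libraries were U2OS with siCtrl, U2OS with siINTS11, U2OS-AsiSI with siCtrl and U2OS-AsiSI with siINTS11, each 48 h after transfection. U2OS-AsiSI carries AsiSI-ER, a restriction enzyme joined to the ligand-binding part of the oestrogen receptor, and both of its groups had 1 h of OHT, the ligand that brings the fusion into the nucleus. Nuclease, OHT and line therefore differ together between the U2OS and U2OS-AsiSI libraries and cannot be told apart. Whether replicates came from separate cultures, and whether the nuclease line is 1 clone, is not given in the sources used here, so p-values measure the spread between these libraries only.

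Depth ran from 20704611 to 38065726 counts per library, and the 259 genes took between 0.379% and 0.450% of them. INTS11 itself stood at 10.1, 8.88 and 10.1 CPM (counts scaled to library size by the TMM method) in the U2OS siCtrl libraries and at 7.86, 7.07 and 7.19 CPM in the siINTS11 libraries. This was a fall of 0.42 on the log2 scale (SE 0.087, edgeR adjusted p = 6.08e-05). In U2OS-AsiSI the values were 9.64, 10.997 and 9.83 CPM with siCtrl and 9.01, 9.33 and 9.49 CPM with siINTS11, a log2 difference of -0.13 that did not pass the threshold of 0.05 (SE 0.083, edgeR adjusted p = 0.172). TT-seq counts new RNA over the whole gene, so it does not measure how much mature INTS11 mRNA was left. The osteoblast lineage genes RUNX2, COL1A1 and SPARC were abundant, COL1A2 had 2 to 13 reads per library, BGLAP had 0 reads, and PTPRC, ALB and KRT5 were near 0. EPCAM, also a marker of another cell type, was not near 0, with 108 to 201 reads per library. It was higher with siINTS11 in U2OS (log2 0.42, edgeR adjusted p = 0.000612) and at 0.24 in U2OS-AsiSI, where it did not pass (adjusted p = 0.0736). Of these markers RUNX2 was lower with siINTS11 (log2 -1.07 in U2OS-AsiSI and -0.84 in U2OS), ALPL, another osteoblast gene, went from between 69 and 182 to between 248 and 345 reads per library, and PECAM1, an endothelial gene, went from between 22 and 34 to between 77 and 103 reads per library; their part in the results was not tested.

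Genes that share most of their span with another gene had few or no counted reads. All 259 lengths equal the genomic span, so introns are counted, and the median span was 24.2 kb (1.57 to 485.2 kb). There were 34 genes with 0 reads in all 12 libraries, and each of them shared at least 95.985% of its span with another gene on the same strand. None of the 147 genes that share no base on their strand was at 0, nor any of the 11 that lie wholly under a gene of the other strand and share none on their own. The same held beyond the family: 743 of 776 protein-coding genes with nearly all of the span shared on the strand were at 0 (95.7%), against 174 of 959 wholly under a gene of the other strand (18.1%). Of protein-coding genes that share no base on either strand, 828 of 6764 were at 0 (12.2%). A 0 among these 34 genes, ZNF585A, ZNF468 and ZNF816 among them, therefore says nothing about transcription. In all, 181 genes passed the filter on low counts in at least 1 comparison and 78 never did; 43 of the 78 were over 95% shared, and of the other 35, 22 lay in cluster 4. How reads that map to several near-identical ZNF copies were handled is not given in the sources used here, so values of close paralogs are uncertain.

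Sorted along the chromosome, with a gap of over 1 Mb parting one group from the next, 247 of the genes fell into 9 clusters and 12 lay outside them. Cluster 1 held 5 genes between 2.82 and 2.94 Mb, cluster 2 held 16 (7.07 to 9.79 Mb), cluster 3 held 28 (11.5 to 12.6 Mb) and cluster 4 held 41 (19.7 to 23.9 Mb). Beyond the centromere, cluster 5 held 6 genes (34.5 to 35.0 Mb), cluster 6 held 27 (36.2 to 37.8 Mb), cluster 7 held 24 (43.5 to 45.1 Mb), cluster 8 held 42 (51.6 to 53.6 Mb) and cluster 9 held 58 (55.5 to 58.5 Mb). Spans were longest in cluster 6 (median 40.1 kb) and cluster 4 (35.9 kb) and shortest in cluster 5 (9.99 kb) and cluster 9 (13.6 kb).

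Levels were compared per kb of the span that no other gene on the strand shares. Cluster 4 stood apart from the other 8: its median was 0.00287 CPM per kb, against 0.300 in cluster 3, the next lowest, and 1.48 in cluster 2, the highest. Of its 38 genes under 95% shared, 22 (57.9%) had a mean of at most 3 reads per library, and no library held more than 6 reads of any of them. They include ZNF43, ZNF85, ZNF100, ZNF208 and ZNF257. Such genes were 4 of 11 outside the clusters, 1 of 5 in cluster 1, 1 of 6 in cluster 5, 2 of 17 in cluster 3, 1 of 19 in cluster 7, 1 of 37 in cluster 8, and 0 in clusters 2, 6 and 9. The remaining 16 genes of cluster 4 were transcribed and tested, with ZNF738 the highest at 0.786 CPM per kb. The highest genes of the other clusters, in order along the chromosome, were ZNF57 (0.909 CPM per kb), ZNF699 (4.35), ZNF791 (1.54), ZNF302 (3.15), ZNF146 (3.80), ZNF283 (3.33), ZNF614 (2.76) and the transcribed pseudogene ZNF542P (8.87), the highest of all.

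**Figure D1:**
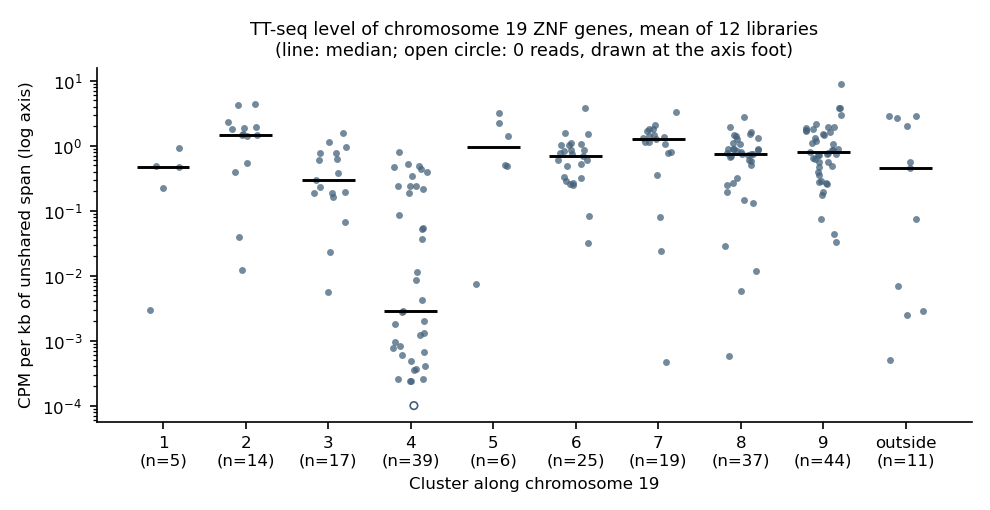
Mean level over 12 libraries of each chromosome 19 ZNF gene with at least 500 unshared bases, as CPM per kb of unshared span on a log axis, by cluster, with the cluster median as a line and a gene at 0 reads as an open circle. Most of cluster 4 lies orders of magnitude below the other clusters, with a median of 0.00287 CPM per kb, while its transcribed genes reach 0.786.

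siINTS11 moved the ZNF genes of chromosome 19 in both directions. In U2OS-AsiSI, 90 of 179 tested genes passed the threshold (edgeR, adjusted p under 0.05), 32 higher and 58 lower; that is 50.3%, below the 68% called among all 20441 genes tested. All genes split evenly, 35.4% higher and 32.6% lower, while the ZNF genes split 17.9% higher and 32.4% lower. In U2OS, 92 of 180 passed, 50 higher and 42 lower (51.1%), against 66.9% of all genes, 34.5% higher and 32.4% lower. The median log2 fold change of the tested ZNF genes was -0.06 in U2OS-AsiSI and 0.02 in U2OS, beside 0.03 and 0.02 for all genes. Scaling by library totals alone instead of TMM raised the median of all genes to 0.22 in both lines and that of the ZNF genes to 0.13 and 0.22, and the calls became 76 higher and 28 lower in U2OS-AsiSI and 108 higher and 18 lower in U2OS. In U2OS-AsiSI the majority of calls thus turned from lower to higher with the scaling, and the changes below are relative to the TMM scale. As a share of all reads the 259 genes went from 0.388% ± 0.0120 (SD, n = 3) to 0.437% ± 0.00772 in U2OS, and from 0.414% ± 0.00748 to 0.443% ± 0.00605 in U2OS-AsiSI, with no overlap between libraries in either line.

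Cluster 4 departed from that mixture: most of its transcribed genes fell in both lines. In U2OS-AsiSI 12 of 16 tested genes were lower and 0 higher, with a median log2 fold change of -0.51, and in U2OS 11 were lower and 2 higher, with a median of -0.36. The same 11 genes were lower in both lines. The medians of the other clusters lay between -0.19 (cluster 6) and 0.11 (cluster 5) in U2OS-AsiSI and between -0.07 and 0.12 in U2OS. With library totals alone, 11 of the 16 were still lower in U2OS-AsiSI (median -0.32) and 7 in U2OS (median -0.16, with 3 higher), while the other ZNF genes went to 75 higher and 17 lower in U2OS-AsiSI. The share of reads taken by cluster 4 was lower with siINTS11 in every library of either line, from between 0.0217% and 0.0242% to between 0.0203% and 0.0207% in U2OS, and from between 0.0209% and 0.0224% to between 0.0162% and 0.0177% in U2OS-AsiSI. Of 4 other genes tested within the span of the cluster, 1 was higher and 1 lower in each line.

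**Figure D2:**
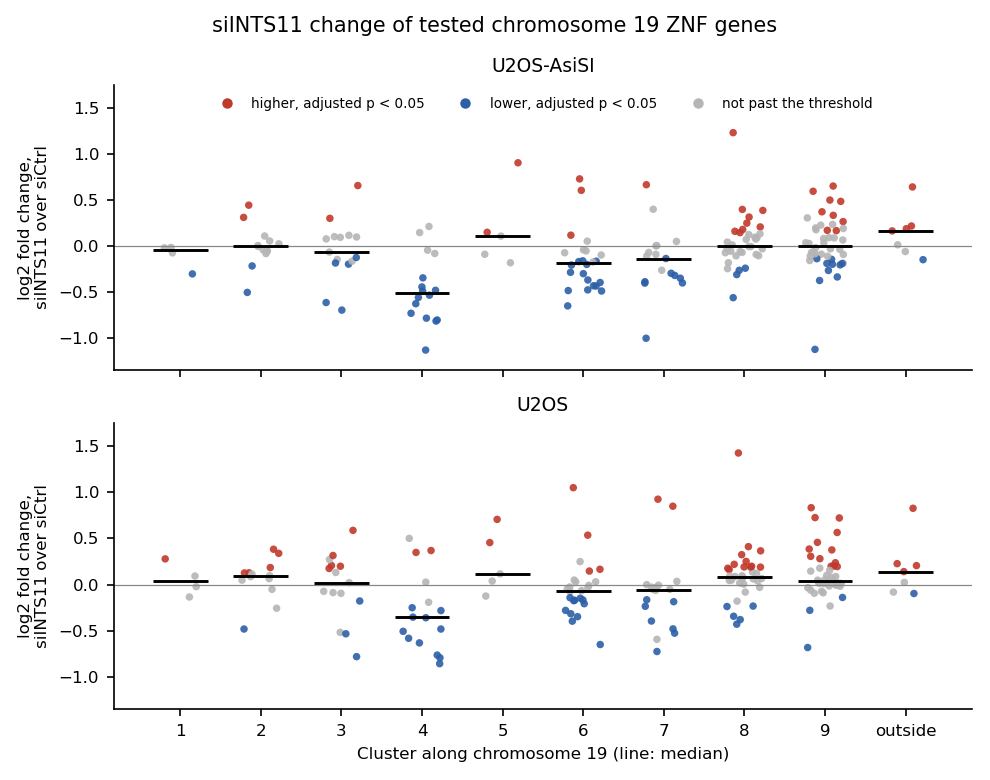
log2 fold change of siINTS11 over siCtrl for each tested chromosome 19 ZNF gene, by cluster, in U2OS-AsiSI (top) and U2OS (bottom); red and blue mark genes past the threshold (edgeR) and the line is the cluster median. In cluster 4 the points lie mostly below 0 in both lines, with medians of -0.51 and -0.36, and the other clusters lie on both sides of 0 on the TMM scale shown, except that all 4 genes of cluster 1 are below 0 in U2OS-AsiSI; with library totals alone the cluster 4 medians are -0.32 and -0.16.

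The promoters of cluster 4 are shown first because its genes moved together and are close relatives. RefSeq promoters (GRCh38.p14) were matched by symbol for 212 of the 259 genes, and the 250 bases before the annotated start were used. The RefSeq start lay within 100 bases of the start of the counted gene for 158 of them and within 1000 bases for 177. The others are pooled here but may not be the promoters of the counted genes. In 28 cluster 4 promoters the median pairwise identity was 79.2% and 265 of 378 pairs reached 70%, against a median of 58.8% and 2 of 19276 pairs between clusters. The promoters of ZNF430, ZNF93, ZNF91 and ZNF726 are printed as examples, and all 4 hold both runs of 13 bases marked in capitals. These runs were picked after the sequences had been seen. The 4 do not stand for every gene of the cluster.
ZNF430, chr19:21020407-21020656 (plus strand): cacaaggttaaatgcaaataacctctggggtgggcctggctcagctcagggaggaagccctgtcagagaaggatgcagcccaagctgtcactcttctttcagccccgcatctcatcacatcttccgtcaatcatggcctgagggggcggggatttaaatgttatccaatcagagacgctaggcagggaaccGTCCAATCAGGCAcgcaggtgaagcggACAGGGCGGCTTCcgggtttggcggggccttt
ZNF93, chr19:19900696-19900945 (plus strand): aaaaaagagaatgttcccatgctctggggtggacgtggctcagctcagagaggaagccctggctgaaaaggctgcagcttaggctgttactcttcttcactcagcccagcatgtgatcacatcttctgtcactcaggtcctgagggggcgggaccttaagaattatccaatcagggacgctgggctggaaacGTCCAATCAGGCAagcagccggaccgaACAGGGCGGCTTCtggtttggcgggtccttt
ZNF91, chr19:23395472-23395721 (minus strand): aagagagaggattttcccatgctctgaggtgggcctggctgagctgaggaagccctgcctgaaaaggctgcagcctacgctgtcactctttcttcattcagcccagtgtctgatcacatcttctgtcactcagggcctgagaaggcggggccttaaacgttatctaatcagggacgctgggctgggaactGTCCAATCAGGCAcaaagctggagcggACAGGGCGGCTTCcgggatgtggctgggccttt
ZNF726, chr19:23914636-23914885 (plus strand): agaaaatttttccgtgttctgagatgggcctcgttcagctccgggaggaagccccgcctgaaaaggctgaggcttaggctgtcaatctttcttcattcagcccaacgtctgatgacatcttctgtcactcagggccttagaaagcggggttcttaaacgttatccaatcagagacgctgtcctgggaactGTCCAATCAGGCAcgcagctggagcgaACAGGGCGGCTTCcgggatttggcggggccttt
ZNF91 and ZNF726 matched at 86.4% of positions and ZNF93 and ZNF430 at 80.8%. ZNF708 of the same cluster, printed further below, matched these 4 at only 63.6% to 67.2% and holds neither run. The run GTCCAATCAGGCA, which contains a CCAAT box, was found on either strand in 15 of the 28 cluster 4 promoters, in 0 of the other 184 and in 22 of all 27305 promoters of the table. The run ACAGGGCGGCTTC was found in 9 of the 28 and nowhere else in the table. Both occurred in tested and in never tested genes of the cluster, 7 of 14 and 8 of 14 for the first run and 5 of 14 and 4 of 14 for the second. Of 33 promoters of ZNF genes lower in both lines, 6 held the first run and 5 the second. Neither was in any of 20 promoters of genes higher in both.

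The largest fall in U2OS-AsiSI was that of ZNF430 (chr19:21020634-21060050, plus strand), a KRAB gene of 39.4 kb in the middle of the cluster. Its level was 12.2, 12.3 and 9.65 CPM in the U2OS-AsiSI siCtrl libraries and 5.83, 5.28 and 4.52 CPM in the siINTS11 libraries. In U2OS it was 11.2, 14.5 and 13.4 CPM with siCtrl and 9.005, 6.64 and 7.89 CPM with siINTS11. All siINTS11 libraries lay below all siCtrl libraries of the same line, and the log2 fold change came to -1.13 ± 0.105 (SE) in U2OS-AsiSI and -0.76 ± 0.096 in U2OS (edgeR adjusted p = 7.62e-11 and 2.28e-08). Such a separation in both lines was a condition for naming the 6 largest falls and 6 largest rises, so it is no further result. Further along the cluster, ZNF708 (chr19:21291160-21329425, minus strand) went from 19.6 ± 0.534 (SD, n = 3) to 11.2 ± 1.11 CPM in U2OS-AsiSI and from 21.3 ± 1.69 to 14.6 ± 0.752 CPM in U2OS. ZNF738 (chr19:21358930-21379302, plus strand), whose listed protein has a KRAB box and 0 fingers by the pattern, went from 18.98 ± 0.171 to 10.9 ± 1.39 CPM in U2OS-AsiSI and from 20.5 ± 1.71 to 13.6 ± 0.751 CPM in U2OS. Libraries of siCtrl and siINTS11 did not overlap for either gene in either line, which was again a condition for naming them.

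ZNF91 (chr19:23304991-23395471, minus strand) represses SVA retrotransposons and has 32 fingers by the pattern. It stood at 40.9, 38.8 and 35.3 CPM with siCtrl and 26.3, 23.8 and 24.1 CPM with siINTS11 in U2OS-AsiSI. In U2OS it stood at 42.8, 48.5 and 42.9 CPM with siCtrl and 31.6, 32.1 and 34.6 CPM with siINTS11. The groups were apart in both lines, with log2 fold changes of -0.63 ± 0.060 and -0.48 ± 0.053 (SE; edgeR adjusted p = 1.33e-10 and 1.45e-10). ZNF93 (chr19:19900913-19963464, plus strand), which binds and represses L1 elements, stood at 17.6, 18.8 and 16.1 CPM with siCtrl and 12.5, 11.7 and 11.3 CPM with siINTS11 in U2OS-AsiSI. In U2OS it stood at 17.4, 18.3 and 16.9 CPM with siCtrl and 14.7, 12.99 and 14.4 CPM with siINTS11. Again no library overlapped, and ZNF93 fell by 0.56 and 0.35 on the log2 scale (edgeR adjusted p = 9.21e-08 and 2.18e-05), though in U2OS the fall was 0.15 and not past the threshold with library totals alone (adjusted p = 0.0648).

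The other genes of cluster 4 ranged widely in size of change. ZNF714, ZNF730, ZNF682, ZNF492 and ZNF675 were lower in both lines, with log2 fold changes in U2OS-AsiSI of -0.81, -0.53, -0.49, -0.45 and -0.35 and in U2OS of -0.86, -0.79, -0.51, -0.28 and -0.25. ZNF675 (162 kb, also known as an inhibitor of TRAF6 signalling) was the longest tested gene inside a cluster, at 38.4 ± 1.27 CPM with siCtrl and 30.03 ± 1.19 CPM with siINTS11 in U2OS-AsiSI; with library totals alone its value in U2OS was -0.05 and did not pass. ZNF14 was lower in U2OS-AsiSI (log2 -0.48, edgeR adjusted p = 9.84e-05) and at -0.19 in U2OS, where it did not pass (adjusted p = 0.0684). Both genes that were higher in U2OS lie at the telomere side of the cluster: ZNF101, its first gene, was at 0.35 in U2OS (edgeR adjusted p = 0.00312) and 0.21 in U2OS-AsiSI (adjusted p = 0.0673), and ZNF56 was at 0.37 in U2OS (adjusted p = 6.83e-05) and -0.047 in U2OS-AsiSI (adjusted p = 0.62). ZNF429 and ZNF431 did not pass in either line. These are near-identical paralogs in part, and whether reads moved between them in counting was not tested.

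In U2OS-AsiSI the falls outside cluster 4 were led by ZNF418 in cluster 9 and ZNF404 in cluster 7. In U2OS the lowest value outside cluster 4 was that of ZNF439 in cluster 3, singled out after its values were seen, at -0.78 (edgeR adjusted p = 1.64e-08) beside -0.70 in U2OS-AsiSI (adjusted p = 1.09e-06). ZNF418 (chr19:57921884-57935393, minus strand) stood at 6.14, 5.04 and 5.19 CPM with siCtrl and 2.62, 2.42 and 2.43 CPM with siINTS11 in U2OS-AsiSI. In U2OS the values were 4.66, 4.86 and 4.30 CPM and 2.78, 3.04 and 3.002 CPM. Every siINTS11 library was below every siCtrl library of the same line, as the naming rule required. ZNF418 changed by -1.12 ± 0.125 log2 units (SE, edgeR adjusted p = 3.4e-09) in U2OS-AsiSI and by -0.68 ± 0.118 in U2OS (adjusted p = 2.89e-06). ZNF404 (chr19:43872365-43901385, minus strand), which shares 33.0% of its span with another gene on the strand, went from 31.2 ± 2.66 to 15.6 ± 1.20 CPM in U2OS-AsiSI (SD, n = 3) and from 37.96 ± 3.28 to 23.5 ± 1.33 CPM in U2OS. The change was -1.002 ± 0.068 log2 units and -0.73 ± 0.058 (SE, edgeR adjusted p = 6.33e-14 and 1.82e-14).

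Outside cluster 4, cluster 6 held the most genes lower in both lines. In U2OS-AsiSI 15 of its 24 tested genes were lower and 3 higher (median -0.19), in U2OS 11 of 25 were lower and 4 higher (median -0.07), and 10 were lower in both. Of all genes tested, 32.6% were lower and 35.4% higher in U2OS-AsiSI, and 32.4% and 34.5% in U2OS. Cluster 7 leaned the same way in U2OS-AsiSI, with 8 of 17 lower and 1 higher (median -0.14). It had 6 genes lower in both lines. The majority in cluster 6 depends on the scaling: with library totals alone 7 of its genes were lower and 4 higher in U2OS-AsiSI and 3 lower and 11 higher in U2OS. ZNF420 (chr19:37007857-37130368, plus strand), a KRAB protein known as a negative regulator of p53-mediated apoptosis, went from 67.2, 64.9 and 58.6 CPM to 44.2, 38.1 and 38.7 CPM in U2OS-AsiSI. In U2OS it went from 74.2, 80.9 and 80.2 CPM to 50.2, 51.3 and 51.8 CPM. The groups did not overlap, and ZNF420 changed by -0.65 ± 0.058 log2 units and by -0.65 ± 0.043 (SE, edgeR adjusted p = 2.55e-11 and 3.81e-17). At 122.5 kb it is the longest gene of the cluster.

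Of 178 genes tested in both lines 26 were higher in both, against 5742 of all 20121 genes tested in both. Of the 26, 8 lay in cluster 8, 6 in cluster 9, 4 outside the clusters, 3 in cluster 6, 2 in cluster 2 and 1 each in clusters 3, 5 and 7. Clusters 8 and 9 are also the largest, with 34 and 44 genes tested in U2OS-AsiSI, while 7 were tested outside the clusters. By the naming rule 24 genes were open to be named as rises and 35 as falls. How many of all genes would meet that rule was not counted, so these counts say nothing particular about the family. Both sets of 6 are shown in the plot of CPM by library. ZNF792 (chr19:34956354-34964229, minus strand, 7.88 kb) stood at 13.6, 14.9 and 16.01 CPM with siCtrl and 27.5, 28.9 and 26.4 CPM with siINTS11 in U2OS-AsiSI. In U2OS it stood at 10.7, 10.4 and 11.5 CPM with siCtrl and 18.7, 17.4 and 17.9 CPM with siINTS11. The siINTS11 libraries were the higher ones without overlap in both lines, as the naming rule required. ZNF792 changed by 0.90 ± 0.066 log2 units and by 0.71 ± 0.071 (SE, edgeR adjusted p = 3.04e-13 and 1.06e-11). ZNF296 (chr19:45071500-45076587, minus strand, 5.09 kb), which has no KRAB box by the pattern, stood at 5.36, 6.33 and 5.99 CPM with siCtrl and 8.66, 10.04 and 9.35 CPM with siINTS11 in U2OS-AsiSI. In U2OS the values were 3.28, 3.96 and 3.35 CPM and 7.80, 7.07 and 5.81 CPM, again without overlap, as the naming rule required. It changed by 0.66 ± 0.095 log2 units and by 0.93 ± 0.114 (SE, edgeR adjusted p = 3.58e-07 and 2.67e-09).

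ZNF837, ZNF114, ZNF582 and ZNF552 complete the 6 rises, with log2 fold changes in U2OS-AsiSI of 0.65, 0.64, 0.59 and 0.50 and in U2OS of 0.83, 0.83, 0.56 and 0.72, all past the threshold in both lines. ZNF582, whose promoter is a known methylation marker in cervical and oral cancer, overlaps the pseudogene ZNF542P on the opposite strand over part of its span. ZNF542P stood at 92.1, 93.1 and 96.7 CPM with siCtrl and 118, 124 and 112 CPM with siINTS11 in U2OS-AsiSI. In U2OS it stood at 89.6, 85.3 and 96.2 CPM and 112, 116 and 113 CPM. Both genes were higher without overlap in both lines, which the naming rule required of ZNF582 but not of ZNF542P. ZNF542P was higher by 0.33 and 0.31 on the log2 scale (edgeR adjusted p = 2.86e-07 and 2.28e-08). The strand setting of the counting is not given in the sources used here; in the counting check, lying under a gene of the other strand did not take any of 11 ZNF genes to 0 reads. Below the count minimum of 100 for naming, and picked after its values were seen, ZNF578 in cluster 8 had the largest rise of all, from 1.02, 0.735 and 0.741 CPM to 1.78, 2.26 and 2.78 CPM in U2OS and from 0.984, 1.10 and 1.02 CPM to 2.20, 2.91 and 2.26 CPM in U2OS-AsiSI (log2 1.43 and 1.23).

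**Figure D3:**
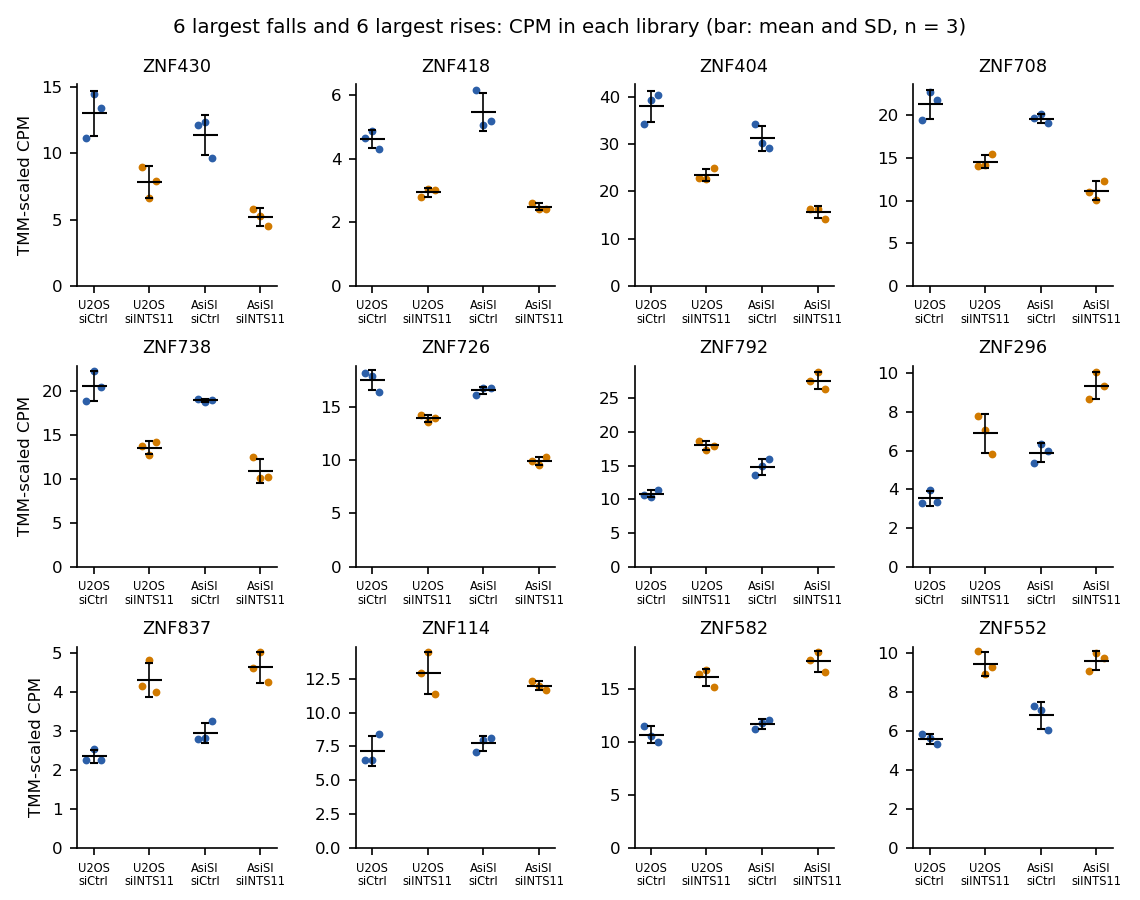
TMM-scaled CPM in each of the 12 libraries for the 6 named falls (ZNF430 to ZNF726) and the 6 named rises (ZNF792 to ZNF552), ranked by the change in U2OS-AsiSI, with blue points for siCtrl, orange points for siINTS11 and a bar for the mean and SD of 3 libraries. In each panel the siINTS11 libraries lie on one side of the siCtrl libraries of the same line, which the naming rule required. For ZNF430 the levels are 11.4 ± 1.51 CPM against 5.21 ± 0.660 CPM in U2OS-AsiSI.

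Genes with long spans tended to be lower. Across 179 tested genes Spearman's rho of span and log2 fold change was -0.26 in U2OS-AsiSI and -0.23 across 180 in U2OS, as a description across genes, which are not replicates and share the libraries. Among all tested protein-coding genes rho was -0.37 and -0.34, and among ZNF genes of other chromosomes -0.49 and -0.48. Without cluster 4 the values were -0.19 and -0.17. In U2OS-AsiSI the median log2 fold change was 0.00 under 20 kb (67 genes), -0.07 from 20 to 40 kb (68 genes) and -0.18 at 40 kb and over (44 genes), beside 0.14, -0.02 and -0.20 for protein-coding genes of the same spans. In U2OS it was 0.04, 0.04 and -0.09, beside 0.10, 0.00 and -0.18. The ends of the range did not follow this order: the 2 shortest tested genes, ZNF524 and ZNF784, were at -0.093 and -0.19 in U2OS-AsiSI and did not pass (edgeR adjusted p = 0.461 and 0.223), and ZNF536, the longest at 485.2 kb and a repressor of neuronal differentiation, was higher by 0.22 and 0.21 (adjusted p = 0.00118 and 0.000231). Cluster 4 genes of 20 to 40 kb had a median of -0.76 in U2OS-AsiSI (6 genes), below the -0.06 of the other ZNF genes in that band (62 genes). At 40 kb and over the medians there were -0.49 (9 genes) and -0.15 (35 genes). In U2OS cluster 4 stood at -0.47 from 20 to 40 kb and -0.35 at 40 kb and over. Between these bands of cluster 4 the longer genes thus fell less in both lines.

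**Figure D4:**
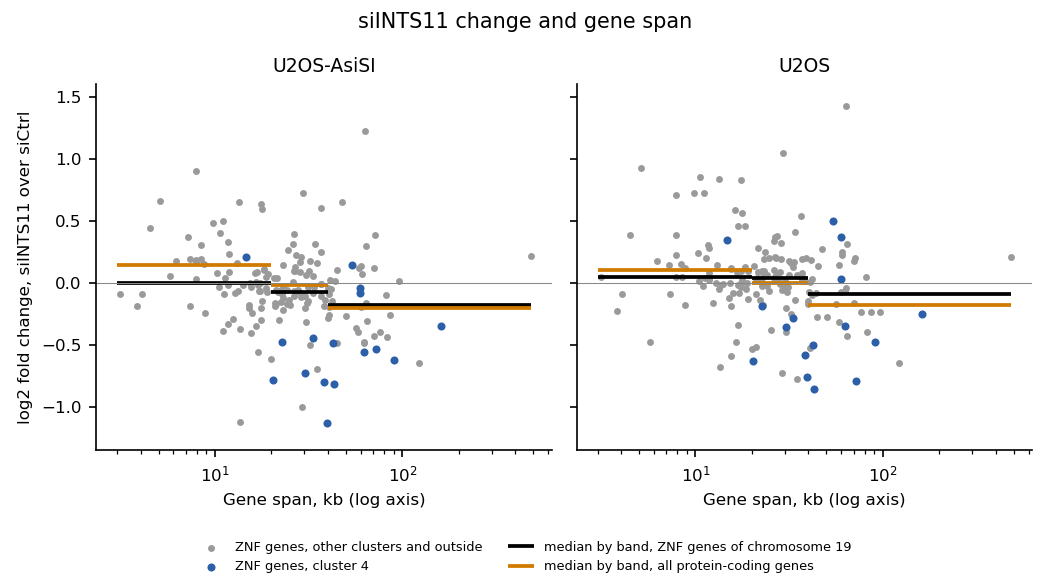
log2 fold change of siINTS11 over siCtrl against gene span (kb, log axis) for tested chromosome 19 ZNF genes in both lines, with cluster 4 in blue, and bars for the median in each of 3 span bands for these genes (black) and for all protein-coding genes (orange). At 40 kb and over the medians are -0.18 and -0.20 in U2OS-AsiSI. The 6 cluster 4 genes of 20 to 40 kb have a median of -0.76 there, and the 9 of 40 kb and over -0.49.

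Cluster membership and protein features were set beside the change as a description. Clusters held 20.5% of the variance of the log2 fold change in U2OS-AsiSI, or 8.75% with cluster 4 left out, and 13.7% or 6.65% in U2OS. Genes with a KRAB pattern had a median of -0.07 (142 genes, 20 higher and 50 lower) and coding genes without one 0.01 (30 genes, 10 higher and 7 lower) in U2OS-AsiSI, and 0.02 and 0.03 in U2OS. Of all genes tested in U2OS-AsiSI, 35.4% were higher and 32.6% lower. Cluster 4, with 34 coding genes that have the pattern and 2 that do not, gave 12 lower and 0 higher calls there. These calls are on the TMM scale, and the lower majority among the ZNF genes turned with library totals alone. By number of fingers the medians in U2OS-AsiSI were 0.03 under 10 fingers, -0.09 from 10 to 14 and -0.08 at 15 and over. The median in U2OS-AsiSI was -0.06 on either strand, and -0.06 with and without shared bases. Of genes that share no base and are protein-coding, 55 of 117 passed in U2OS-AsiSI and 58 of 117 in U2OS. Only 6 genes had over 0.1 reads per base, ZNF542P at 0.261 being the densest.

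Across all the ZNF promoters the letters differed by cluster too. An ETS site (CCGGAAGT on either strand) was found in 30 of 212 chromosome 19 ZNF promoters (14.2%), against 3.64% of all 27305 promoters, and in 0 of the 28 of cluster 4. A TATA box (TATAAA on either strand) was found in 4 of 212 (1.89%), against 11.1% of all promoters, and 3 of those 4 lie in cluster 4. YY1 (AAGATGGC), NRF1 (GCATGCGC) and ZNF143 (ACTACAATT) sites were found in 4.25%, 3.77% and 1.42%, against 1.37%, 2.81% and 0.355% of all promoters. The CpG content, as observed over expected, had a median of 0.73 in the 212, 0.44 in cluster 4 and 0.56 in all promoters. In 211 promoters of ZNF genes on other chromosomes the ETS site stood at 10.9%, the TATA box at 4.27% and the median CpG content at 0.80. YY1, NRF1 and ZNF143 sites stood there at 0.948%, 6.64% and 1.9%. The ETS, TATA and CpG values of the 212 lay nearer to that set than to all promoters, so they are not particular to chromosome 19. Among genes lower in both lines 3 of 33 promoters held the ETS site, and among genes higher in both 1 of 20. As examples, ZNF708 of cluster 4 shows a TATA box and ZNF274 of cluster 9 an ETS site, each in capitals and each on the strand opposite to the gene, and ZNF792, the largest named rise in U2OS-AsiSI, has none of the 5.
ZNF708, chr19:21329411-21329660 (minus strand): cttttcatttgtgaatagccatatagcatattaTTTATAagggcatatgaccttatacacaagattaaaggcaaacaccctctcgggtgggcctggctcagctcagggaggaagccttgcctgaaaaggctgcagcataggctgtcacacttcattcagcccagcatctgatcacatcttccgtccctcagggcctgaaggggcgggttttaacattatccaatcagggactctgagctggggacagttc
ZNF274, chr19:58182811-58183060 (plus strand): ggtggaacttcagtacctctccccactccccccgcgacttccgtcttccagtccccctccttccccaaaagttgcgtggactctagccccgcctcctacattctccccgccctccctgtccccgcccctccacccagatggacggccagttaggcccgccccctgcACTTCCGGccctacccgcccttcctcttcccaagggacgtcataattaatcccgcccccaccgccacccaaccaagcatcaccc
ZNF792, chr19:34964230-34964479 (minus strand): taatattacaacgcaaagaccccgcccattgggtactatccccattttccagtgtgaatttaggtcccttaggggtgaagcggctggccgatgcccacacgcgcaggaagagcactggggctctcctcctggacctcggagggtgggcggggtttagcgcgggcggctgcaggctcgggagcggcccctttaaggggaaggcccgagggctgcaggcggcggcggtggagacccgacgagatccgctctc
In ZNF708 the box starts 217 bases before the annotated start, and in ZNF274 the ETS site starts 84 bases before it.

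Both lines gave much the same order of changes, from libraries that they do not share. Over 178 genes tested in both, the log2 fold changes correlated at a Pearson r of 0.89 and a Spearman rho of 0.86, across genes. The sign was the same for 139 (78.1%), against 86.9% of all 20121 genes tested in both. Of the genes called in U2OS-AsiSI 70% were also called in U2OS, and of those called in U2OS 68.5% in U2OS-AsiSI, against 83.4% and 84.2% over all genes. Of the 178 ZNF genes 26 were higher in both and 36 lower in both, beside 5742 and 5615 of all 20121 genes. Both shares were smaller than among all genes. ZNF667 alone was lower in U2OS-AsiSI and higher in U2OS, on the TMM scale, while 60 of all genes were called in opposite directions.

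The difference between the lines was tested in 1 model of the 12 libraries with an interaction term. It passed for 11 of 181 genes, 1 higher and 10 lower in U2OS-AsiSI, or 6.08%, against 3.87% of all genes (0.762% higher and 3.1% lower). The median difference was -0.13 for the ZNF genes and -0.05 for all genes. ZNF57 of cluster 1 (chr19:2900898-2918473, plus strand) went from 18.8, 17.8 and 18.02 CPM to 15.2, 13.5 and 15.2 CPM in U2OS-AsiSI. In U2OS it went from 13.8, 16.002 and 14.7 CPM to 15.8, 16.6 and 16.3 CPM. The siINTS11 libraries were the lower ones in U2OS-AsiSI, while the groups overlapped in U2OS, and its log2 fold changes differed by -0.43 ± 0.095 (SE, edgeR adjusted p = 0.00902).

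ZNF667 (chr19:56439325-56478065, minus strand) went from 22.8, 23.03 and 22.2 CPM to 21.8, 19.1 and 20.5 CPM in U2OS-AsiSI and from 19.5, 20.5 and 18.7 CPM to 23.03, 23.9 and 21.7 CPM in U2OS. Libraries did not overlap in either line, and the gene was lower in one line (-0.14, edgeR adjusted p = 0.0483) and higher in the other (0.20, adjusted p = 0.00482), with a difference of -0.37 ± 0.085 (SE, adjusted p = 0.0123). With library totals alone its value in U2OS-AsiSI was 0.051 and did not pass, so the fall there depends on the scaling. ZNF726 of cluster 4 (chr19:23914876-23945159, plus strand) was lower in both lines and more so in U2OS-AsiSI, where it went from 16.1, 16.7 and 16.7 CPM to 9.92, 9.51 and 10.2 CPM. In U2OS it went from 18.1, 17.9 and 16.4 CPM to 14.2, 13.5 and 13.9 CPM. The difference was -0.41 ± 0.094 (SE, edgeR adjusted p = 0.013), and no library overlapped in either line, as the rule for naming it among the falls required. ZNF529 of cluster 6 and ZNF56 of cluster 4 also passed, with differences of -0.30 and -0.45. The count leans on single libraries: it was 1 without U2OS siCtrl replicate 3, where none of these 5 genes passed (edgeR adjusted p from 0.0554 to 0.103). It was 4 without U2OS siINTS11 replicate 3, without U2OS-AsiSI siINTS11 replicate 2 or without U2OS-AsiSI siINTS11 replicate 3, 5 without U2OS-AsiSI siCtrl replicate 1, and 6 without U2OS siINTS11 replicate 2. It was 7 without U2OS siCtrl replicate 1, U2OS siINTS11 replicate 1 or U2OS-AsiSI siCtrl replicate 2. Median-of-ratios size factors and DESeq2 each gave 6, with all 5 named genes past the threshold in both.

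**Figure D5:**
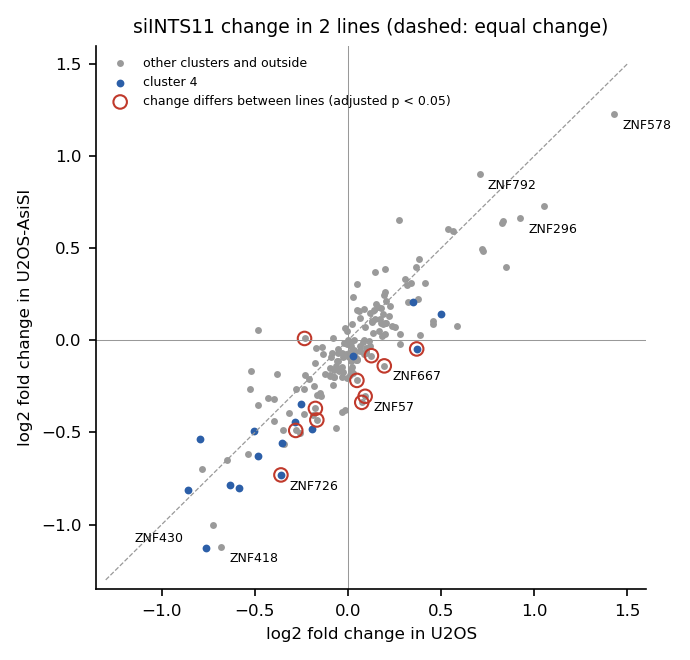
log2 fold change of siINTS11 over siCtrl in U2OS-AsiSI against U2OS for the 178 chromosome 19 ZNF genes tested in both, with cluster 4 in blue and the 11 genes whose change differs between the lines circled in red (edgeR, interaction). The points follow the dashed line of equal change (r = 0.89), and 10 of the 11 circled genes lie below it.

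Between the lines under the same siRNA, fewer of these genes differed than of all genes. Under siCtrl 53 of 180 differed (29.4%), 32 higher and 21 lower in U2OS-AsiSI, against 34.9% of all genes (17.8% higher and 17.2% lower). Under siINTS11 57 of 180 differed (31.7%), 18 higher and 39 lower, against 43.6% (22.2% higher and 21.4% lower). With library totals alone the splits were 55 higher and 12 lower under siCtrl and 35 higher and 22 lower under siINTS11, so the majority under siINTS11 depends on the scaling. Span ordered this contrast as well, with rho of -0.46 under siCtrl and -0.39 under siINTS11, beside -0.48 and -0.49 in protein-coding genes. These comparisons share their libraries with the siINTS11 comparisons above.

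ZNF574, outside the clusters, was higher in U2OS-AsiSI under both siRNAs, at 27.8, 29.3 and 27.5 CPM against 21.9, 21.2 and 21.7 CPM in U2OS with siCtrl. With siINTS11 it stood at 31.9, 31.8 and 30.8 CPM against 25.3, 24.2 and 23.3 CPM. The lines did not overlap, with log2 differences of 0.39 ± 0.059 and 0.41 ± 0.054 (SE, edgeR adjusted p = 4.07e-06 and 4.92e-08). ZNF296 was higher by 0.73 with siCtrl and ZNF792 by 0.65 with siINTS11 (adjusted p = 8.04e-06 and 7.11e-12). ZNF420 was lower in U2OS-AsiSI by a log2 difference of -0.30 with siCtrl, and ZNF404 by -0.56 with siINTS11 (adjusted p = 1.91e-05 and 3.64e-09). In cluster 4, 10 of 16 tested genes were lower in U2OS-AsiSI with siINTS11 and 0 higher, and with siCtrl 5 were lower and 1 higher.

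Genes of known function fell on both sides of the threshold. ZNF473, the U7 snRNP component that takes part in histone pre-mRNA processing, stood at 73.6, 75.7 and 72.3 CPM with siCtrl and 70.5, 70.6 and 70.7 CPM with siINTS11 in U2OS-AsiSI. In U2OS it stood at 66.7, 65.7 and 68.6 CPM and 70.3, 69.8 and 68.4 CPM. It did not pass in either line (-0.061 ± 0.046 and 0.024 ± 0.041 log2, SE, edgeR adjusted p = 0.237 and 0.622). ZNF274, which binds the 3′ ends of other ZNF genes and recruits SETDB1, did not pass either, at 0.064 and -0.015, and it was higher in U2OS-AsiSI than in U2OS with siCtrl by 0.21 (adjusted p = 0.000696). ZNF146, which consists of fingers with no KRAB box, was lower in U2OS-AsiSI by a log2 change of -0.17 (adjusted p = 0.00217), a value of 0.02 with library totals alone. ZNF224, a repressor of the aldolase A gene, was lower in both lines at -0.40 and -0.19 (adjusted p = 1.31e-05 and 0.0108), with 0.01 in U2OS under library totals alone. ZNF808, which represses MER11 elements in the developing pancreas, was higher by 0.25 and 0.19 (adjusted p = 0.000244 and 0.00155).

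The highest genes per cluster mostly moved little. ZNF699 and ZNF614 did not pass in either line, at -0.045 and -0.071 in U2OS-AsiSI. ZNF791 was lower in both lines (-0.13 and -0.18, edgeR adjusted p = 0.0353 and 0.0017), and ZNF283 in U2OS-AsiSI (-0.14, adjusted p = 0.0117), but both were above 0 with library totals alone. The call of ZNF791 in U2OS-AsiSI was also lost on leaving out siCtrl replicate 2 or 3 or siINTS11 replicate 1 or 3, with edgeR adjusted p from 0.0532 to 0.147, and that of ZNF283 on leaving out siCtrl replicate 1 or siINTS11 replicate 3. ZNF302 was higher in U2OS-AsiSI (0.15, adjusted p = 0.0224), a call lost without siCtrl replicate 1 or 2 or siINTS11 replicate 1 or 2, without a count filter and with DESeq2.

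The proteins through which KRAB zinc fingers act were followed in a list of 26 partner genes, all of them tested. In U2OS-AsiSI 6 were higher and 13 lower (73.1% called, against 68% of all genes, median -0.12), in U2OS 2 were higher and 15 lower (65.4%, against 66.9%, median -0.11), and 0 differed between the lines by edgeR's adjusted p (10 at an unadjusted p under 0.05). With library totals alone the majority turned, to 12 higher and 3 lower in U2OS-AsiSI and 10 higher and 5 lower in U2OS. TRIM28, the corepressor that the KRAB box binds, stood at 22.6, 24.7 and 24.7 CPM with siCtrl and 25.7, 27.04 and 25.5 CPM with siINTS11 in U2OS-AsiSI. In U2OS it stood at 21.5, 19.8 and 20.7 CPM and 20.1, 20.7 and 19.2 CPM. It did not pass in either line (edgeR adjusted p = 0.064 and 0.275). SETDB1, the methyltransferase, was lower in both, by log2 changes of -0.27 ± 0.048 and -0.12 ± 0.043 (SE, adjusted p = 1.37e-05 and 0.0133). ATRX, a chromatin remodeller that acts at H3K9me3-marked ZNF genes and repeats, had the largest fall past the threshold in U2OS-AsiSI, at -0.50, and was at -0.37 in U2OS (adjusted p = 1.25e-10 and 4.56e-10). The ATRX gene spans 281356 bases, and long genes tended to be lower. The part of span in its fall was not tested. Partner values are nascent RNA, and the proteins themselves were not measured. CHD4, the helicase of the NuRD complex, had the largest rise, 0.75 in U2OS-AsiSI (adjusted p = 0.00109), but it shares 83.9% of its span on the strand, stood at 0.882, 1.38 and 0.914 CPM with siCtrl and 1.89, 1.63 and 1.85 CPM with siINTS11, and did not pass in U2OS (adjusted p = 0.66).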

How the data were processed

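Gene counts of 12 TT-seq libraries were used as the authors deposited them, as whole counts per gene over the genomic span. Per the submitters' processing notes, Trimmomatic 0.36, STAR 2.7, featureCounts and deepTools were used with hg38; the strand setting and the handling of multi-mapping reads and duplicates are not given in the sources used here, and no spike-in scaling was used here. Counts were tested with edgeR 4.0.16 (R 4.3.3): TMM scaling, filterByExpr, robust quasi-likelihood fits over all genes and Benjamini-Hochberg adjustment, called at an adjusted p under 0.05. Each siINTS11 comparison and each comparison of the lines used its own 6 libraries, and the difference between the lines used all 12 with an interaction term (U2OS-AsiSI minus U2OS). The scripts were tested on simulated data. CPM values are TMM-scaled.

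Depth was 20704611 to 38065726 counts per library, and replicates differed by more than sampling noise (chi-square over degrees of freedom from 2.11 to 3.1). All count columns had a sample. Overlaps came from the coordinates deposited with the counts, gene types and protein features from GENCODE 29 and promoters from RefSeq. In GENCODE 29, 144 of the 259 genes had the same coordinates as deposited. The members and lists were chosen with earlier results of these data known. Named genes were the 6 largest falls and 6 largest rises ranked by the U2OS-AsiSI log2 fold change, if called in that line, averaging 100 counts or more in whichever group was higher, and with siCtrl and siINTS11 libraries apart in each line; the 2 shortest and 2 longest tested; the highest level per cluster; up to 5 (difference between lines) or 3 (lines under each siRNA) with the smallest adjusted p; 8 genes of known function; and, of 26 partner genes, TRIM28, SETDB1 and the largest rise and fall in U2OS-AsiSI. Other genes in the text were singled out after their values were seen. Settings varied in turn were the scaling (median-of-ratios size factors, or none beyond library totals), the filter (none, or a mean count of at least 50), the tool (DESeq2 1.42.0), a replicate block, each library left out, and restriction to coding genes sharing no base. Chosen after the data had been seen were a limit of 0.1 reads per base on the genes tested and thinning of all libraries to the smallest total.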

Additional observations from a re-analysis of the deposited data

Results flagged for a closer look

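For 11 chromosome 19 ZNF genes the siINTS11 change in U2OS-AsiSI differed from that in U2OS by edgeR's interaction test over 12 libraries (adjusted p under 0.05). The differences in log2 fold change were -0.43 for ZNF57, -0.30 for ZNF529, -0.37 for ZNF667, -0.41 for ZNF726 and -0.45 for ZNF56. ZNF317 differed by -0.30, ZNF562 by -0.24, ZNF875 by -0.23, ZNF566 by -0.24 and ZNF749 by -0.45. ZNF83 was the 1 gene with a difference above 0, at 0.21: it was at 0.01 in U2OS-AsiSI and -0.23 in U2OS. Of the 11, ZNF667 was lower in U2OS-AsiSI and higher in U2OS on the TMM scale, and ZNF529, ZNF726, ZNF875 and ZNF566 were lower in both lines. The line, the nuclease and OHT cannot be told apart here.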

How the results depend on the processing

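The count of ZNF genes whose change differs between the lines was 11, and 6 with median-of-ratios size factors, 7 without a count filter, 6 at a mean count of at least 50, 6 with DESeq2, 7 with thinned libraries and 1 to 12 on leaving out 1 library. Over the 117 coding genes that share no base, 55 (18 higher, 37 lower) were called in U2OS-AsiSI and 58 (33 higher, 25 lower) in U2OS; fewer genes were tested there. The median log2 fold change became 0.13 in U2OS-AsiSI and 0.22 in U2OS with library totals alone, -0.02 and 0.06 at a mean count of at least 50, and 0.01 to 0.05 in U2OS on leaving out 1 library. The Spearman correlation of span and change in U2OS-AsiSI was -0.19 without a filter. With library totals alone, 13 of the 73 named values checked turned sign: ZNF699 (0.14 in U2OS-AsiSI, 0.15 in U2OS), ZNF791 (0.06, 0.02), ZNF146 (0.02, 0.17), ZNF283 (0.05, 0.14), ZNF614 (0.12, 0.17), ZNF274 in U2OS (0.18), ZNF473 in U2OS-AsiSI (0.13) and ZNF224 in U2OS (0.01). That list does not hold every gene in the text: ZNF667 in U2OS-AsiSI also turned, from -0.14 to 0.051. That scaling moves the median of all genes as well; no other cause was tested. The replicate numbers did not pair the libraries (correlations of deviations from -0.077 to 0.223); with a replicate block the counts were 94 in U2OS-AsiSI, 91 in U2OS, 15 for the difference, and 43 and 56 for the lines under siCtrl and siINTS11, and all 73 named values kept their direction and side of the threshold. The 22 genes of cluster 4 with a mean of at most 3 reads were too low to test at this depth; whether reads were lost to near-identical copies was not tested.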
